A study of Mus musculus with 6 samples.

Results

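The genes described here are 5 products that mark stages of natural killer (NK) cell maturation: the inhibitory receptor Klrg1, the TNF receptor family member Cd27, the sialomucin CD43 encoded by Spn, the membrane protein Emp3 and the chymase Cma1. They were chosen by name, as a set of surface and protease markers, with earlier results of these data known. They make up 5 of the 13455 genes tested. Cd27 and Cma1 carry the older symbols Tnfrsf7 and Mcpt5 on the array, and 9 of its 46643 probes belonged to the set, 8 of them bright enough to be tested. The cells were CD45+ CD3- Nkp46+ NK11+ NK cells of 12-week-old male mice of the RAG-2-KO strain on C57BL/6, taken from spleen, intestine or skin, with 2 samples of each tissue and 1 Illumina BeadChip array per sample. All 3 groups therefore carry the same Rag2 deletion, which leaves mice without mature T and B cells, and no wild-type sample was compared. The labels do not say whether the 2 samples of a tissue came from separate mice or pools, so the p-values cover the variation among these samples alone, and that may be technical.

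Mouse NK cells start as cells with CD27 and little CD11b, gain CD11b, and then lose CD27 as they mature. KLRG1 appears late on this path and, on binding cadherins of neighbouring cells, dampens the cell through an inhibitory motif in its tail. CD27 is a costimulatory receptor for CD70, and CD43 is a large, heavily glycosylated surface mucin whose level rises as NK cells mature. EMP3 is a small membrane protein with several membrane spans, of the family of PMP22. CMA1, also called mouse mast cell protease 5, is a serine protease best known from mast cell granules.

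The promoters of 3 members whose levels differed between tissues, Emp3, Spn and Cma1, and that of Cd27, which differed least between spleen and intestine, are shown to put the measured transcripts in their genomic setting. The sequences run from 250 bases before to 50 bases after the transcript start, are RefSeq sequences on GRCm38.p6, lie on the minus strand in all 4 cases and are written 5′ to 3′. Capitals mark a match to any of 3 motifs searched on both strands: the T-box element TCACAC, the Runx site TGTGGT and the Ets core GGAAGT. The table of promoters held windows for 4 of the 5 members, all but Klrg1.
Emp3 (chr7:45921377-45921676): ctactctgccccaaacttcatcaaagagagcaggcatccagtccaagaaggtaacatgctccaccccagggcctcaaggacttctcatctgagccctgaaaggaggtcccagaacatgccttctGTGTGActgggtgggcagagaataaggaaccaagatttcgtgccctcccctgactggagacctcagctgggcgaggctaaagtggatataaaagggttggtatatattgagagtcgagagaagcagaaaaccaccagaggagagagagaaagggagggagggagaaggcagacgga
Spn (chr7:127137774-127138073): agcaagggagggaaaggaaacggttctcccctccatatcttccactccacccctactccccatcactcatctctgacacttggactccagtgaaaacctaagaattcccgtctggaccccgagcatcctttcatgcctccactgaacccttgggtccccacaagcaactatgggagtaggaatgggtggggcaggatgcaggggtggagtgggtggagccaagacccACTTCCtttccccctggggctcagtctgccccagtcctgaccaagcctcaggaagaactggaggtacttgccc
Cma1 (chr14:55944626-55944925): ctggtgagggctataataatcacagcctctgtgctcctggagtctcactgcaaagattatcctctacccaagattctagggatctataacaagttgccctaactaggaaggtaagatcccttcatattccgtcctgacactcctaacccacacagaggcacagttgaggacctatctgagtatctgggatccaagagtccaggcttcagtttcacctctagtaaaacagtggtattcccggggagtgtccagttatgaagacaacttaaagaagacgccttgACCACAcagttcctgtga
Cd27 (chr6:125236978-125237277): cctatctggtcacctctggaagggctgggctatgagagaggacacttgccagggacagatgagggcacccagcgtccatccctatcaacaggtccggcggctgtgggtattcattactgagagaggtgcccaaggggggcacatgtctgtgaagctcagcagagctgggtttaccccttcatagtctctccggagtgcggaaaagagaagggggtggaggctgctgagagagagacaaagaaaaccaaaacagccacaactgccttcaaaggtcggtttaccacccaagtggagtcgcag
In Emp3 the match is GTGTGA, the reverse complement of the T-box element, 126 bases before the start. In Spn it is ACTTCC, the Ets core on the other strand, 23 bases before the start, and in Cma1 it is ACCACA, the Runx site on the other strand, 32 bases after the start. The Cd27 window holds none of the 3. A second Emp3 window, at chr7:45920800-45921099, holds the Runx site 56 bases before its start. Such matches are common: among 32851 windows, 14.5% hold the T-box element, 16.8% the Runx site and 23.8% the Ets core. The arrays measured no binding at these sites.

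On the same build, Klrg1 lies at chr6:122270596-122282833 and Cd27 at chr6:125232620-125237136. Emp3 spans chr7:45918023-45921426, Spn chr7:127123637-127145552 and Cma1 chr14:55941451-55944675. Cma1 sits in the chymase locus, a cluster of mast cell and lymphocyte granule proteases.

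Signals are the deposited bead intensities, background-subtracted and scaled to a common mean of 83.1 per array, and all 8 tested member probes were detected (detection p under 0.01) on all 6 arrays. Between 15196 and 18530 probes were detected per array, most on the spleen arrays, whose signals before scaling were also the brightest. The sort markers were present, with Klrb1c, the gene of NK1.1, at signals of 978 to 2311. Ncr1, which encodes NKp46, was detected throughout but gave only 10.8 and 14.7 in intestine, against spleen signals of 88.2 and 52.9 and skin signals of 33.1 and 32.4. It too was called lower in intestine than in spleen (-1.23) and than in skin (-0.70). Ptprc, the gene of CD45, was called lower than in spleen in both intestine (-0.71) and skin (-0.86). The part of these differences in those of the members was not tested. Cd3e was not detected on any array, but the T cell genes Cd3d, Cd3g and Cd247 were detected on all 6. Cd3g was called higher in intestine, by 2.35 against spleen and 2.68 against skin. It read 312 and 597 on the intestine arrays and at most 109 elsewhere. Cd247 was called lower than in spleen in both intestine (-1.07) and skin (-0.67). Cd3d was called in no comparison. The Rag2 probe was dim, at 0.341 to 13.2, and detected on 4 arrays, and since its place relative to the deleted part is not known here it checks nothing.

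In the intestine samples 4 of the 5 members were lower than in spleen, and the fifth, Cd27, did not pass the test. For comparison, 49.3% of all genes were called there, 28.3% as lower and 21% as higher (limma, Benjamini-Hochberg adjusted p under 0.05 over all genes). Against skin, all 5 members were lower in intestine, where 39.3% of genes were called, 22.9% as lower and 16.4% as higher. Skin stood close to spleen for Klrg1 and Emp3, was lower for Cma1 and Spn and higher for Cd27. That is 2 members lower and 1 higher, beside 24.5% of all genes called, 11.4% as lower and 13.1% as higher. The median difference of all genes was -0.04, -0.08 and 0.00 on the log2 scale for intestine against spleen, intestine against skin and skin against spleen. In bulk RNA, fewer cells that express a gene and less RNA per cell cannot be told apart.

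**Figure D1:**
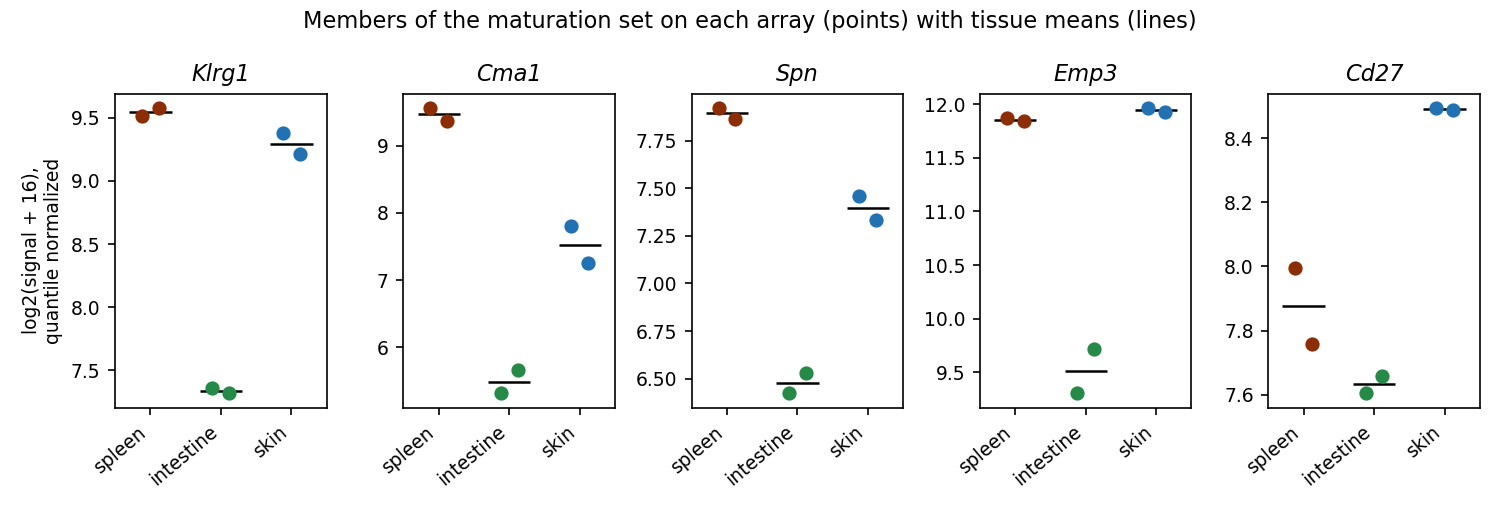
Level of each member on the log2(signal + 16) scale after quantile normalization (y axis, own range per gene) in spleen, intestine and skin (x axis). Points are the 2 arrays of a tissue and lines their mean. All 5 members have their lowest mean in intestine, and Cd27 and Emp3 their highest in skin. Cd27 in intestine against spleen and Emp3 in skin against spleen were not called.

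Klrg1, the late inhibitory receptor, gave spleen signals of 778 and 792, intestine signals of 128 and 123 and skin signals of 629 and 562. Both intestine arrays lay far below the other 4, and the skin arrays lay below both spleen arrays, with no overlap between any pair of tissues. The share of all genes that separate in this way is not given here. For this and the other members the order of arrays is thus description alone. On the log2 scale the means were 9.55 ± 0.044 in spleen, 7.34 ± 0.028 in intestine and 9.30 ± 0.12 in skin (SD, n = 2). Intestine was 4.63-fold lower than spleen, a log2 difference of -2.21 ± 0.13 (SE, adjusted p = 1.45e-06, limma), and only 0.446% of genes had a lower difference. It was 3.88-fold lower than skin (-1.96 ± 0.13, adjusted p = 3.53e-06). Skin against spleen gave -0.25 ± 0.13 (adjusted p = 0.18), with a 95% interval of -0.55 to 0.04. This difference passed the threshold under 2 other scalings, at -0.46 under median scaling (adjusted p = 0.022) and -0.39 under the deposited scaling (adjusted p = 0.0449), so whether skin passed as lower than spleen depended on the scaling.

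Cd27, the receptor that marks the earlier stages, read 277 and 234 on the spleen arrays, 156 and 160 for intestine and 328 and 335 for skin. The skin arrays were the highest and the intestine arrays the lowest, and no pair of tissues overlapped. After quantile normalization the means were 7.88 ± 0.17 in spleen, 7.63 ± 0.039 in intestine and 8.49 ± 0.0049 in skin (SD, n = 2). Cd27 was 1.81-fold lower in intestine than in skin (-0.86 ± 0.14, adjusted p = 0.000818).

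How Cd27 in spleen compared with the other tissues depended on the scaling. Intestine against spleen gave -0.24 ± 0.14 (adjusted p = 0.163, 95% interval -0.55 to 0.06), but -0.67 under median scaling (adjusted p = 0.00164) and -0.64 when the deposited scaling was left as it was (adjusted p = 0.00218). Skin was 1.53-fold higher than spleen (0.62 ± 0.14, adjusted p = 0.0137), which fell to 0.29 (adjusted p = 0.117) and 0.36 (adjusted p = 0.0662) under those scalings. The call of skin over spleen was also lost without spleen replicate 1 (0.73, adjusted p = 0.0687), spleen replicate 2 (0.50, adjusted p = 0.16) or skin replicate 1 (0.61, adjusted p = 0.068). Cd27 was thus higher in skin than in intestine in the fits run, and its place relative to spleen was not settled.

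The difference between Klrg1 and Cd27 on the same array, on the log2 scale and relative to its spleen mean, puts the late and the early marker side by side. It came to -0.15 and 0.15 (spleen), -1.92 and -2.01 (intestine) and -0.79 and -0.95 (skin). Klrg1 was therefore lower relative to Cd27 on both intestine and both skin arrays than on either spleen array, most so in intestine. For Emp3 relative to Cd27 the intestine arrays gave -2.28 and -1.92 and the skin arrays -0.51 and -0.54. These within-array values show unequal change of the pair and were not tested.

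**Figure D2:**
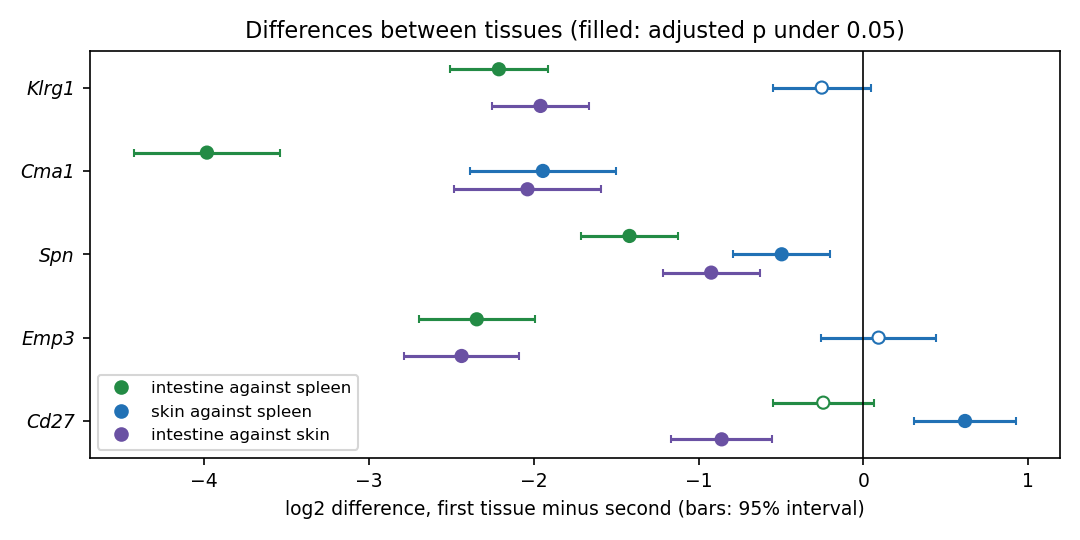
Log2 difference between tissues for each member (x axis, first tissue minus second) with 95% intervals from limma (bars); filled points have an adjusted p under 0.05. All 5 members lie below 0 for intestine against skin, and for skin against spleen Cd27 lies above 0 and Cma1 and Spn below.

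Spn, the gene of CD43, had 4 probes. Its brightest probe, 3870671, read 263 and 253 (spleen), 58.7 and 64 (intestine) and 155 and 143 (skin). Spleen was highest, skin between and intestine lowest on every array, with no overlap. The log2 means were 7.89 ± 0.042, 6.48 ± 0.077 and 7.40 ± 0.090 in spleen, intestine and skin (SD, n = 2). Spn was 2.67-fold lower in intestine than in spleen (-1.42 ± 0.13, adjusted p = 2.22e-05) and 1.90-fold lower than in skin (-0.92 ± 0.13, adjusted p = 0.000417). In skin it was 1.41-fold lower than in spleen (-0.50 ± 0.13, adjusted p = 0.0258).

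The skin difference of Spn was close to the threshold. It passed no longer without spleen replicate 1, spleen replicate 2, skin replicate 1 or skin replicate 2 (adjusted p = 0.186, 0.151, 0.071 and 0.0984), with values of -0.56 to -0.43. It was also lost with an offset of 4 (-0.53, adjusted p = 0.0606) and with no filter on dim probes (-0.50, adjusted p = 0.0662). The direction was the same in all of these.

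The other Spn probes did not all follow the brightest one. Probe 102900576 read 222 and 217 (spleen), 35.9 and 37.8 (intestine) and 88.4 and 75.8 (skin). In the fit over all probes it differed by -1.74 ± 0.14 between intestine and spleen, -0.72 ± 0.14 between intestine and skin (adjusted p = 0.0026) and -1.02 ± 0.14 between skin and spleen (adjusted p = 0.0019). That fit called 27.6% of probes lower and 19.9% higher for intestine against spleen, 19.5% and 16.7% for intestine against skin, and 12.1% and 10.8% for skin against spleen. Probe 3520338, annotated in the file to transcript variant 2, gave 68.0 and 49.1, 21.3 and 31.3, and 58.6 and 41.1, with spleen and skin overlapping. Its differences did not pass the test, at -0.41 ± 0.19 for intestine against spleen (adjusted p = 0.103) and 0.09 ± 0.19 for skin against spleen (adjusted p = 0.764). The fourth probe, 105890369, was not detected on any array, with signals of -1.99 to 4.76.

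**Figure D3:**
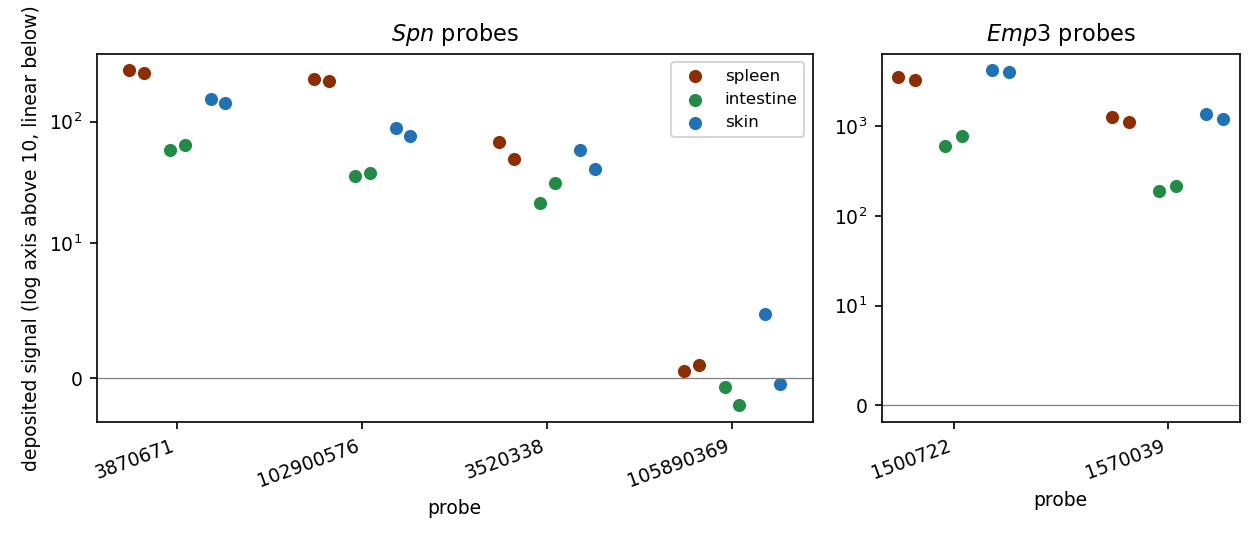
Deposited signal (y axis, logarithmic above 10 and linear below) of each probe of Spn and Emp3 (x axis) on the 2 arrays of each tissue (points). The intestine points are lowest for both Emp3 probes and for the 3 detected Spn probes, and 1 Spn probe lies near 0 in every tissue.

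Emp3, the 4-transmembrane protein, gave with its brighter probe, 1500722, signals of 3505 and 3273 (spleen), 601 and 780 (intestine) and 4156 and 4047 (skin). Intestine was far below the other tissues, and the skin arrays lay above both spleen arrays. The log2 means were 11.86 ± 0.016, 9.51 ± 0.29 and 11.95 ± 0.027 in spleen, intestine and skin (SD, n = 2). Emp3 was 5.08-fold lower in intestine than in spleen (-2.34 ± 0.16, adjusted p = 2.71e-06) and 5.41-fold lower than in skin (-2.44 ± 0.16, adjusted p = 2.75e-06). Only 0.223% of genes had a lower difference between intestine and skin, where Emp3 was the lowest of the members in this ranking.

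Skin against spleen gave 0.09 ± 0.16 for Emp3 (adjusted p = 0.69), with a 95% interval of -0.26 to 0.44. With median scaling on detected probes, an alternative added after the data were seen, it was 0.54 (adjusted p = 0.0193). The dimmer probe, 1570039, read 1263 and 1101 (spleen), 187 and 214 (intestine) and 1364 and 1192 (skin). Spleen and skin overlapped there, at 0.20 ± 0.15 (adjusted p = 0.352), while intestine was lower than spleen by -2.23 ± 0.15 and than skin by -2.43, both called. The 2 probes of Emp3 thus gave the same calls in all 3 comparisons.

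Cma1, the protease, differed most between spleen and the other tissues. It read 798 and 691 on the spleen arrays, 19.2 and 29.0 for intestine and 200.04 and 134 for skin. The tissues were ordered spleen, skin, intestine on every array, with no overlap, and in intestine it was dim but detected. The log2 means were 9.47 ± 0.14, 5.49 ± 0.25 and 7.52 ± 0.39 (SD, n = 2), with the largest spread among the members in skin.

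Intestine was 15.8-fold lower than spleen for Cma1 (-3.98 ± 0.20, adjusted p = 5.49e-07), and only 0.0149% of all genes had a lower difference. It was 4.10-fold lower than skin (-2.04 ± 0.20, adjusted p = 3.80e-05). Skin was 3.85-fold lower than spleen (-1.94 ± 0.20, adjusted p = 0.000489), with 0.0966% of genes lower. The offset of 16 understates the fold of so dim a signal. On slide 1 and slide 2, which hold replicate 1 and replicate 2 of every tissue, the difference between intestine and spleen was -4.25 and -3.71, and that between skin and spleen -1.76 and -2.12.

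None of the other serine proteases of the chymase locus was called lower in any comparison. Of 14 in the list, 13 were on the array and 3 were tested. No gene was called between intestine and spleen, while Gzme was called higher in skin than in spleen and Gzmn higher in intestine than in skin. Cma2, Mcpt1, Mcpt2, Mcpt4, Mcpt8, Ctsg, Gzmb, Gzmf and Gzmg were not detected on any array, so for these only dim signal can be stated. The 3 tested genes stayed at signals under 23.

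Mast cells, in which Cma1 is a defining gene, were looked for with 18 other mast cell and basophil genes. Of these, Cpa3, Tpsab1, Mcpt1, Mcpt2, Mcpt4, Mcpt8, Fcer1a, Gata2, Slc18a2, Tph1, Mrgprb1 and Mrgprb2 were not detected on any array, including the spleen arrays where Cma1 was highest. The summed signal of the list was 311 to 317 in spleen, 1448 to 1460 in intestine and 160 to 169 in skin, the opposite order of intestine and spleen to that of Cma1. Most of this sum was Kit, a growth factor receptor also found on innate lymphoid cells, with 282 and 291 in spleen and 1404 and 1370 in intestine. Of 4 tested genes, 3 were higher and 0 lower in intestine against spleen, and 1 was higher and 1 lower in skin against spleen. In intestine against skin 2 were higher and 0 lower. The shares of all genes in these comparisons were 21%, 13.1% and 16.4% higher and 28.3%, 11.4% and 22.9% lower. Besides Kit, the tested genes were Hdc, Tpsb2 and Cyp11a1. Hdc gave 22.8 and 10.1 in intestine and was not detected in spleen or skin. It was called higher in intestine than in either, but it was tested through intestine alone, so a higher value there was nearly fixed in advance. Tpsb2, at 1.83 to 15.3 and not detected in spleen, was called higher in intestine and in skin than in spleen. As it was not tested through spleen, a lower value in spleen was likewise nearly fixed. The counts of higher genes above include these calls. Cyp11a1 was detected on 5 arrays and not called.

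**Figure D4:**
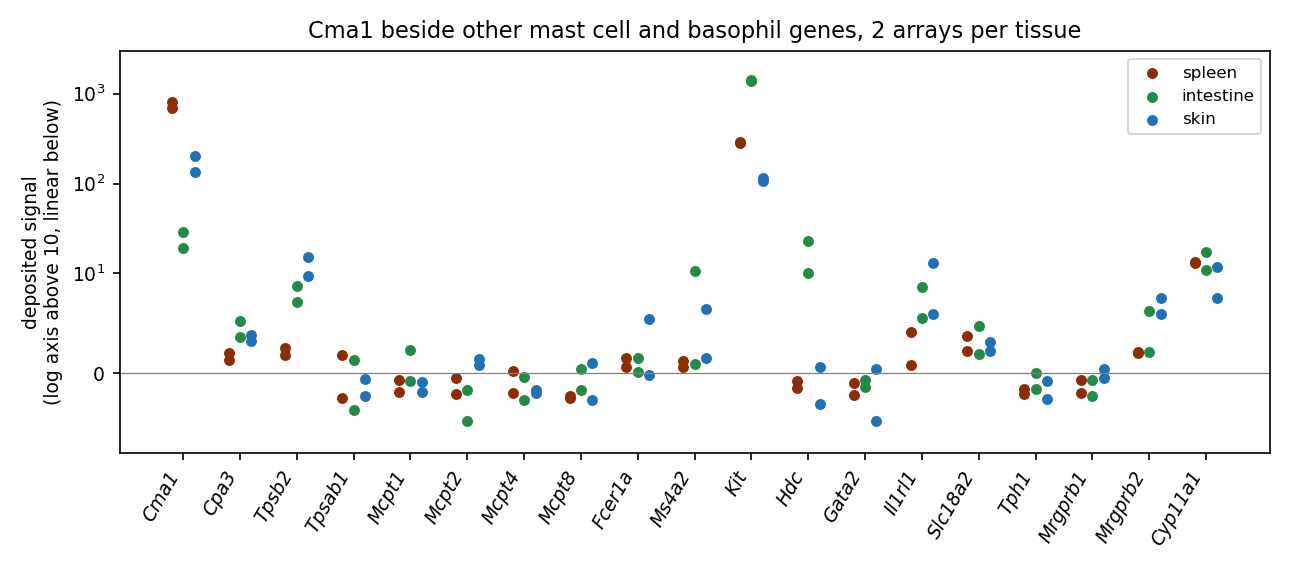
Deposited signal (y axis, logarithmic above 10 and linear below) of Cma1 and of other mast cell and basophil genes (x axis) on the 2 arrays of each tissue (points). Cma1 is bright in spleen, where nearly all other genes lie close to 0, and Kit is brightest in intestine.

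The genes with profiles closest to a member, by root-mean-square distance of the log2 values over the 6 arrays after centring, were different for each member. Nearest to Klrg1 were LOC268288 (distance 0.08), Car5b (0.12) and Raph1 (0.13), with intestine against spleen differences of -2.25, -2.33 and -2.43. Nearest to Emp3 were Rasl12 (0.15), Lgals1 (0.15) and Tha1 (0.17), with -2.39, -2.49 and -2.09. Klrg1 ranked 15 in nearness to Emp3, at 0.24, and Emp3 ranked 55 in nearness to Klrg1. Other probes disagreed for Car5b, at -2.08 to -1.14, and for Rasl12, at -0.93.

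Spn had Tasor (0.05), Pex2 (0.06) and LOC383125 (0.06) as its nearest genes, which were at -1.37, -1.31 and -1.35 between intestine and spleen. Cd27 had Nudt19, Dgkd and Dbnl, each at a distance of 0.06. Cma1 had no neighbour as close: Denn2b was at 0.16, Gprin3 at 0.39 and Fcgr2b, an inhibitory Fc receptor gene, at 0.42. Denn2b was not detected in intestine and was there at least 11.8-fold lower than in spleen. Other probes of Gprin3 and Fcgr2b gave -0.91 and -0.59, against -3.78 and -3.26 for the ones used.

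Among 24 further genes known to be higher in late, CD27-low NK cells, 21 were on the array and 17 were tested. In intestine against spleen 12 were lower, 2 higher and 3 not called, with a median of -1.31 against -0.04 for all genes. The shares of all genes there were 28.3% lower and 21% higher. The 12 included S1pr5, the receptor that guides NK cells out of bone marrow and lymph nodes, at 1052 and 1099 on the spleen arrays, 8.22 and 12.6 for intestine and 255 and 203 for skin, with a difference of -5.24 ± 0.15 (adjusted p = 9.39e-08). They also included the surface marker Ly6c1 (-3.85), the chemokine receptor Cx3cr1 (-2.91) and the integrin chain Itgb2 (-2.75). When only genes detected on all 6 arrays were tested, 7 of the remaining 11 were lower.

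The same genes in intestine against skin gave 11 lower, 2 higher and 4 not called, with a median of -1.01. The shares of all genes there were 22.9% lower and 16.4% higher. Ly6c1 differed by -3.52, S1pr5 by -3.19, Cx3cr1 by -2.02 and Itgb2 by -1.86. In skin against spleen 11 were lower, 1 higher and 5 not called, with a median of -0.57, beside 11.4% and 13.1% of all genes. S1pr5 (-2.05), the potassium channel gene Kcnj8 (-1.66) and the transcription factor Zeb2 (-0.97) were lower, and Lgals3, which encodes galectin-3, was higher (1.79). The 11 lower calls became 3, 4 and 6 without spleen replicate 1, spleen replicate 2 and skin replicate 1, 6 with an offset of 4, and 5 of 11 when only genes detected on all 6 arrays were tested.

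The CD11b gene Itgam itself was dim, with 48.9 and 39.0 (spleen), 3.21 and 7.43 (intestine) and 16.9 and 19.3 (skin). It was not detected in intestine. The transcription factor T-bet, which is needed for late NK maturation, did not follow Klrg1: Tbx21 gave 732 and 890, 653 and 669, and 555 and 658. Its difference between intestine and spleen was -0.12 (adjusted p = 0.528), with the sign turned, to 0.18, under median scaling on detected probes and to 0.039 without spleen replicate 2. Eomes, the related factor, had spleen signals of 952 and 1019.6, intestine signals of 452 and 349 and skin signals of 735 and 692. It was lower in intestine than in spleen by -1.09 ± 0.14 (adjusted p = 0.000193).

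Of 21 genes of the earlier NK stages other than Cd27, 19 were tested. In intestine against spleen 10 were higher, 2 lower and 7 not called, with a median of 0.68. The shares of all genes there were 21% higher and 28.3% lower. The higher ones included Cd69, a retention and activation receptor (511 and 539 in spleen, 6791 and 3794 in intestine, 3.24), Kit (2.41) and the cytokine signalling inhibitor Socs2 (2.57). Other probes gave 1.34 to 3.16 for Cd69 and 0.63 for Socs2. Il2ra, the IL-2 receptor alpha chain, was not detected in spleen or skin with its brightest probe. That probe was tested through intestine alone, so a higher value there was nearly fixed in advance. It was at least 4.22-fold higher in intestine than in spleen, while the other Il2ra probes gave smaller log2 differences of 1.199 to 1.571. Sox4, among the lower genes, was likewise tested through spleen alone. With median scaling and with the deposited scaling left as it was, the early genes were 9 higher and 6 lower in intestine against spleen.

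Intestine against skin gave 12 higher, 2 lower and 5 not called, with a median of 0.48, beside 16.4% and 22.9% of all genes. Over the other settings the higher calls ranged from 9 to 13, with 9 for an offset of 4 and for the fit of only the 4 arrays compared. The higher count was also smaller with any 1 array left out. Kit was at 3.44, Il7r at 2.18 and, lower, the chemokine receptor Cxcr3 at -2.15. Il2ra was at least 3.75-fold higher in intestine than in skin with its brightest probe, again tested through intestine alone, and its other probes gave 1.24 to 1.61. In skin against spleen the early genes split, with 5 higher, 6 lower and 8 not called and a median of 0.20. The shares of all genes there were 13.1% higher and 11.4% lower. Thy1 was higher (1.86), as was Cd69 (1.93, other probes 0.23 to 1.22), and Socs2 gave 1.97 with another probe at 0.16, while Kit was lower (-1.02). The 6 lower calls became 1 without spleen replicate 1 or spleen replicate 2, and 2 without skin replicate 1 or skin replicate 2, and the 5 higher calls became 3 without any 1 of those 4 arrays. The lower calls were also 2 with an offset of 4 and with no filter on dim probes, and 4 with median scaling on detected probes.

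**Figure D5:**
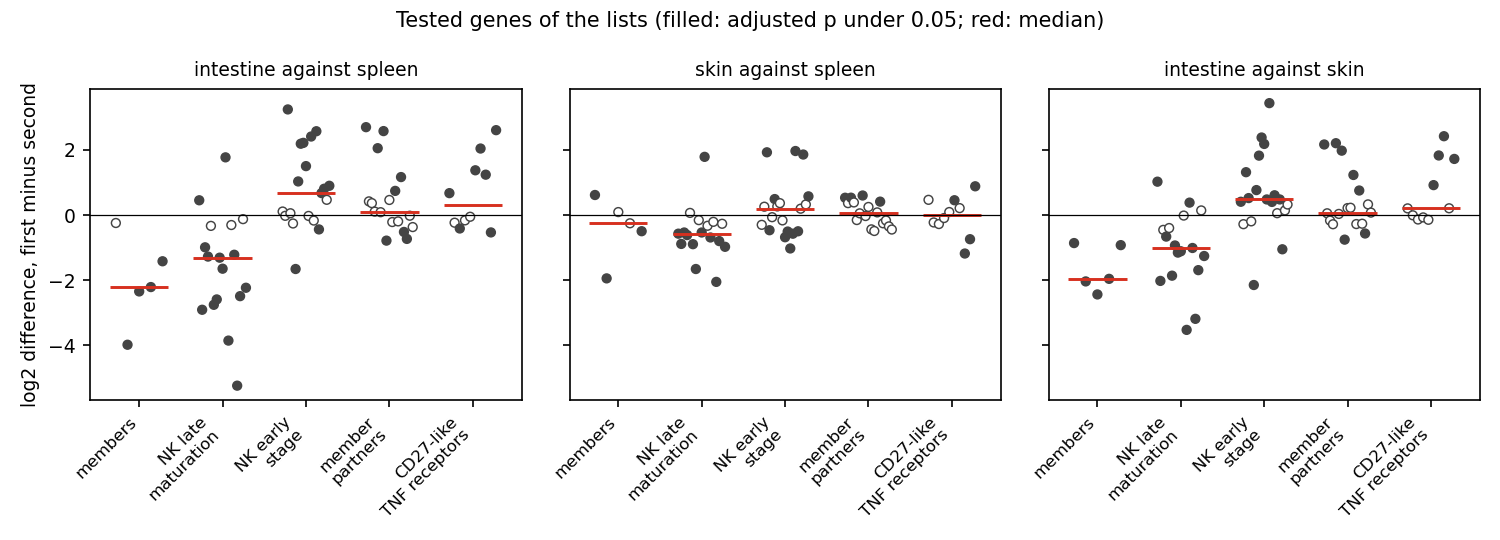
Log2 difference (y axis, first tissue minus second) of every tested gene (points) among the members and the fixed gene groups (x axis), 1 panel per comparison; filled points have an adjusted p under 0.05 and red lines are medians. The late maturation genes have medians of -1.31, -0.57 and -1.01 for intestine against spleen, skin against spleen and intestine against skin, and the early stage genes medians of 0.68, 0.20 and 0.48.

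The ligands, tail-binding proteins and glycosylating enzymes of KLRG1, CD27 and CD43 were measured in the same sorted cells. Of 21 genes, 17 were tested. In intestine against spleen 5 were higher, 3 lower and 9 not called, with a median of 0.11. In intestine against skin 5 were higher, 2 lower and 10 not called, with a median of 0.08. The shares of all genes were 21% higher and 28.3% lower against spleen, and 16.4% and 22.9% against skin. Cdh1, which encodes E-cadherin, the ligand of KLRG1, gave 61.1 and 84.5 in intestine and was not detected in spleen or skin, being at least 4.79-fold and 4.25-fold higher in intestine. Tested through intestine alone, it was nearly fixed in advance to be higher there. Icam1, which encodes a ligand of CD43, was higher in intestine by 2.05 and 2.21 against spleen and skin, and Siva1, which binds the CD27 tail, by 1.17 against spleen.

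Map3k14, a kinase downstream of CD27, was higher by 2.58 against spleen and 1.98 against skin, with another probe at 0.54 and 0.83. Against spleen, median scaling and the deposited scaling gave 5 partners higher and 5 lower, and median scaling on detected probes 9 higher and 3 lower. In skin against spleen 4 partners were higher and 0 lower, with a median of 0.05, beside 13.1% and 11.4% of all genes. The 4 included Cdh1 (0.53), which was detected in neither tissue and was tested through intestine alone. Neither count was stable: median scaling gave 1 higher and 4 lower, the deposited scaling 2 and 3, an offset of 4 gave 2 and 0, no filter 1 and 0, and the replicate block 4 and 3. The higher count became 0 without spleen replicate 1, spleen replicate 2 or skin replicate 1 and 1 without skin replicate 2. Cd70, the CD27 ligand, and Siglec1 were not detected on any array.

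Of 12 TNF receptor relatives of CD27, 10 were tested, and unlike Cd27 several were higher in intestine. Against spleen 5 were higher and 2 lower, with a median of 0.31, beside 21% and 28.3% of all genes. Against skin 4 were higher and 0 lower, with a median of 0.21, beside 16.4% and 22.9%. Tnfrsf1b was higher by 2.04 and 1.83, Tnfrsf18, which encodes GITR, by 1.37 and 0.92, and Tnfrsf25 by 1.24 and 2.42 against spleen and skin. Other probes gave smaller values for Tnfrsf25, at 0.40 and 0.84, and for Tnfrsf1b, at 0.93 to 1.38 against spleen and 1.10 to 1.44 against skin, and for Tnfrsf18 they gave 0.96 and 0.97. Tnfrsf9, which encodes 4-1BB, gave 2.61 against spleen, with another probe at -0.34. The 2 lower calls became 0 without spleen replicate 1 and 1 without spleen replicate 2 or intestine replicate 1, and ranged from 1 to 3 over the other settings. In skin against spleen 2 were higher and 2 lower, with a median of 0.00, beside 13.1% and 11.4% of all genes. Tnfrsf25 was at -1.18 (another probe -0.44). The 2 higher calls became 0 when the probes of a gene were averaged or spleen replicate 2 was left out, and 1 without spleen replicate 1, skin replicate 1 or skin replicate 2, and the 2 lower calls became 1 without either spleen array.

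Of the 3 relatives of Emp3, Emp2 and Pmp22 were not detected on any array. Emp1 moved opposite to Emp3, with 17.2 and 20.01 (spleen), 302 and 94.4 (intestine) and 50.7 and 56.5 (skin). It was higher in intestine by 2.68 against spleen (adjusted p = 0.000184) and by 1.54 against skin (adjusted p = 0.00579), and was also called higher in skin than in spleen. The 2 intestine arrays of Emp1 stood further apart than those of either other tissue.

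Markers of other cell types also differed between these samples, and their part in the member differences was not tested. For the counts that follow, 21% of all genes were called higher and 28.3% lower in intestine against spleen. These shares were 13.1% and 11.4% in skin against spleen, and 16.4% and 22.9% in intestine against skin. Group 2 innate lymphoid cell genes, of 12 with 6 tested, summed to 607 to 617 in spleen, 2160 to 3005 in intestine and 433 to 487 in skin. In intestine against spleen 5 were higher and 0 lower, among them Rora (3.81) and Icos (1.95). The remaining tested gene, Gata3, was called in no comparison. Its log2 difference was 0.11 for intestine against spleen (adjusted p = 0.63, limma), 0.35 for intestine against skin and -0.23 for skin against spleen. For Bcl11b, at 1.14 in intestine against spleen, other probes gave -0.50 to 0.45. For Klf5, at 0.39, another probe gave 0.87. Group 3 innate lymphoid cell genes, of 16 with 8 tested, summed to 868 to 910, 2364 to 2420 and 426 to 486, with 6 higher and 0 lower in intestine against either tissue. In intestine against skin, 4 of the group 2 genes were higher and 0 lower. Both sums were highest in intestine, where all 5 members had their lowest mean, Cd27 without a call against spleen. The group 3 sum in intestine was mostly Kit and Il7r (643 and 656), which also stand in the early stage list, while Il22, Il23r, Il17f and Ccr6 were not detected on any array. The group 2 sum there was mostly Rora (2093 and 1445), and Il5, Il17rb and Il9r were not detected on any array.

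Macrophage, monocyte and dendritic cell genes, of 20 with 9 tested, summed to 556 to 591 in spleen, 342 to 351 in intestine and 404 to 409 in skin. Against spleen, 6 were lower and 1 higher in intestine and 7 were lower in skin, and 1 was higher in intestine against skin. The 6, Adgre1, Lyz2, C1qa, C1qb, C1qc and Mrc1, were detected in spleen only. They were thus tested through spleen alone, and a lower value elsewhere was nearly fixed in advance. Zbtb46 was higher in intestine and lower in skin than in spleen, and Cd68 and Itgax were not called in either. Erythroid and platelet genes, of 13 on the array with 6 tested, summed to 11770 to 17679, 914 to 1471 and 910 to 1166, with 5 lower and 1 higher in either tissue against spleen. T cell genes, 14 on the array with 8 tested, summed to 1181 to 1272, 1416 to 1590 and 1001 to 1089, with 3 higher and 3 lower in intestine against spleen, 2 and 2 in skin against spleen, and 3 and 1 in intestine against skin.

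The remaining lists had few genes bright enough to test. B and plasma cell genes, 3 tested of 11, summed to 907 to 917, 985 to 1304 and 1101 to 1240 in spleen, intestine and skin, with 1 higher in intestine against spleen, 1 higher in intestine against skin and 1 lower in skin against spleen. Neutrophil genes, 1 tested of 11, summed to 19.4 to 161, 23.8 to 26.0 and 12.7 to 21.3, and the tested gene was lower in skin than in spleen. Keratinocyte genes, 4 tested of 15, summed to 53.0 to 55.0, 81.2 to 87.9 and 66.6 to 106, with 2 higher and 1 lower in intestine against spleen and 1 higher in skin against spleen. Gut epithelium genes, 3 tested of 15, summed to 84.6 to 106, 63.1 to 100.5 and 112 to 124, with 1 lower in intestine against skin. The highest sum of either epithelial list was 124, on a skin array.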

How the data were processed

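Sorted cells were profiled on 6 Illumina mouse arrays. Per the file headers, the deposited tables give a bead intensity and a detection p-value per probe. BeadStudio 1.5.1.3 is named in the submitters' processing notes. Values show background subtraction and scaling to an equal mean, steps not given in the sources used here. The plan allowed for raw signals; as they were already subtracted, its fallback applied: log2 of the deposited intensity plus 16 was taken, and arrays were quantile normalized in limma 3.58.1 (R 4.3.3). Probes were kept if 1 tissue or more had a detection p under 0.01 on both of its arrays (18583), with the brightest probe per gene (13455 genes). Symbols were updated through a RefSeq table (GRCm38.p6): of all probes 20147 had a current and 12966 an older symbol. One limma model over all 6 arrays (lmFit, eBayes, 3 residual degrees of freedom) gave 3 contrasts, two-sided, with Benjamini-Hochberg adjustment and a threshold of 0.05. The limma step was tested on simulated data.

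The members and the gene lists were chosen with earlier results of these data known. Genes named were the members with all probes, up to 4 of the most changed called genes per list and comparison, the 3 nearest profiles per member and a few fixed genes; for length, values are printed for part of these, picked with the values in sight. Replicate numbers coincide with slides. Deviations from the tissue means of same-numbered arrays correlated at 0.157 (spleen and intestine), 0.210 (spleen and skin) and 0.114 (intestine and skin) over genes. The main model did not pair the samples, and the slide entered as a block only among the alternatives. Alternatives covered scaling, offset, filter, probe choice, prior, slide block, fits of 4 arrays, the series table and leaving out each array. With 2 arrays per tissue, their number limits the precision.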

Additional observations from a re-analysis of the deposited data

How the results depend on the processing

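Each member difference was recomputed under 19 other settings. Of 285 such values 269 kept their direction and side of the threshold, 11 lost the call, 5 gained it and 0 reversed. All member calls in intestine against skin, and those of Klrg1, Spn, Emp3 and Cma1 in intestine against spleen, held throughout. With median scaling and with the deposited scaling alone, Cd27 in intestine against spleen was called (-0.67 and -0.64), Klrg1 in skin against spleen was called (-0.46 and -0.39), and Cd27 in skin against spleen was not (0.29 and 0.36), leaving 0 members called higher in skin. Spn in skin against spleen was not called with an offset of 4 (-0.53) or with no filter on dim probes (-0.50), leaving 1 member called lower under each. Median scaling on detected probes, added after the data were seen, called Emp3 higher in skin than in spleen (0.54), making 2 members higher. Leaving out 1 array gave 0.50 to 0.73 for Cd27 and -0.56 to -0.43 for Spn in skin against spleen, with 0 to 1 members called higher and 1 to 2 lower. Genes called in skin against spleen numbered 3300, but 5117 with median scaling, 2121 with an offset of 4, 1826 with no filter and 452 to 4774 without 1 array; in intestine against spleen 6630, and 4008 to 6705 without 1 array. The count fell to 452 and 464 without spleen replicate 2 and 1, and to 994 without skin replicate 1. The scalings moved the median of all genes in intestine against spleen to -0.28 (median), -0.25 (deposited) and 0.21 (detected probes), and the share of calls that were higher from 42.5% to 23.7%, 25.7% and 66.9%. In skin against spleen that share moved from 53.4% to 26.2%, 36.1% and 75.8%, and in intestine against skin from 41.8% to 33.8%, 30.5% and 51.2%. The replicate block, which is also the slide, called 7110, 3999 and 5703 genes in intestine against spleen, skin against spleen and intestine against skin, against 6630, 3300 and 5282 without it, and changed no member call. Tbx21 in intestine against spleen reversed from -0.12 to 0.18 with median scaling on detected probes and ranged from -0.29 to 0.039 when 1 array was left out, with the sign turned without spleen replicate 2. Why the calls moved was not tested. Skin and intestine arrays had the dimmer unscaled signal, which limits dim genes there.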
